A study of Mus musculus with 12 samples.

Results

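The genes described here encode the proteins of the cytosolic ribosome, together with a few like-named relatives. They were taken from the array table by symbol: a row had to carry a single gene symbol beginning with Rpl, Rps or Rplp and a number, symbols of the ribosomal S6 kinases (Rps6k) and symbols marked as pseudogenes (-ps) were left out, and the row with the highest mean signal stood for each gene. The rule gave 62 genes of the 19938 genes in the table. Of these, 53 are proteins of the mature ribosome: 20 of the small subunit, 30 of the large subunit and the 3 proteins of the P stalk. The other 9 are paralogues or like-named genes: Rpl3l, Rpl7l1, Rpl10l, Rpl32l, Rpl39l, Rps4l, Rps19bp1, Rps23rg1 and Rps27l. The symbols of all 62 were found in the RefSeq gene table. A list of 76 ribosomal protein symbols of the small subunit, the large subunit and the stalk was set beside the table, and the 53 are those with a row of their own; the remaining 23, such as Rpl11, Rpl13a, Rps24 and Rps27, had no single-symbol row and were not analysed here.

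Whole jejunum, a segment of the small intestine, was compared between Fgfr1op KO mice and WT mice. The 6 groups of 2 mice were KO at days 6, 9 and 12 and WT at days 6, 9 and 12 after tamoxifen, giving 12 arrays. Fgfr1op, listed in the table under its newer symbol Cep43, encodes a centrosomal protein. The protocol gives tamoxifen in corn oil at 75 mg/kg by intraperitoneal injection on 5 days in a row, which induces the deletion. The driver of the recombinase, the part of the gene that is deleted, the age of the mice and whether WT mice were littermates were not given in the sources used here, and the protocol does not separate the genotypes in what was injected. RNA came from the whole tissue wall, so in these bulk samples fewer cells of a type and less RNA per cell cannot be told apart. The replicates of a group are separate mice.

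Ribosomes translate mRNA into protein. The small subunit reads the mRNA, the large subunit joins amino acids, and the P stalk of the large subunit recruits the translation factors that drive elongation. Ribosomal proteins are made in near-equal numbers and are assembled onto ribosomal RNA in the nucleolus, and their mRNAs are well known for translation that is controlled together through mTOR signalling. In the intestine, the crypt epithelium divides fast and has a high demand for ribosomes, and mature enterocytes make large amounts of enzymes and apolipoproteins.

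The deposited values were log2 signals between 2.29 and 14.13 with array medians between 5.95 and 6.02, and the 2 mice of a group correlated at 0.992 to 0.997 over all genes. Cep43 had log2 signals of 6.69 and 6.56 in KO at day 6, against 6.97 and 6.90 in WT at day 6. At day 9 its signals were 6.60 and 6.63 in KO, against 6.96 and 7.05 in WT, and at day 12 they were 6.97 and 6.74 in KO, against 6.83 and 7.04 in WT. The KO arrays were lower on days 6 and 9, and the genotypes overlapped at day 12. The log2 difference, KO minus WT, was -0.39 at day 9 (limma adjusted p = 0.0184), -0.31 at day 6 (adjusted p = 0.267) and -0.09 at day 12 (adjusted p = 0.638). Whether the probes of this row lie within the deleted part was not given in the sources used here.

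At day 9 the ribosomal protein genes stood higher in KO jejunum. A gene is written as called where the moderated test of limma, fitted over all 12 arrays with 1 mean for each genotype and day, gave a Benjamini-Hochberg adjusted p under 0.05 over the 19938 genes. At day 9, 39 of the 62 were called higher and 1 was called lower, where 12.6% of all genes were called higher and 17.1% lower. All 37 called genes among the 53 proteins of the mature ribosome were higher. The median log2 difference of the 62 genes was 0.44 at day 9, against 0.02 over all genes, and 57 of the 62 lay above 0 (53.9% of all genes did). The differences were modest: they ran between -0.42 and 1.17 on the log2 scale, and 18 of the 53 were called at 1.5-fold or more. At day 6 none was called in either direction (limma called 0.597% of all genes higher and 0.431% lower, and at an unadjusted p under 0.05 it gave 1 higher and 1 lower of the 62). At day 12, 14 were called higher and 1 lower, where 13.7% of all genes were called in each direction.

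**Figure D1:**
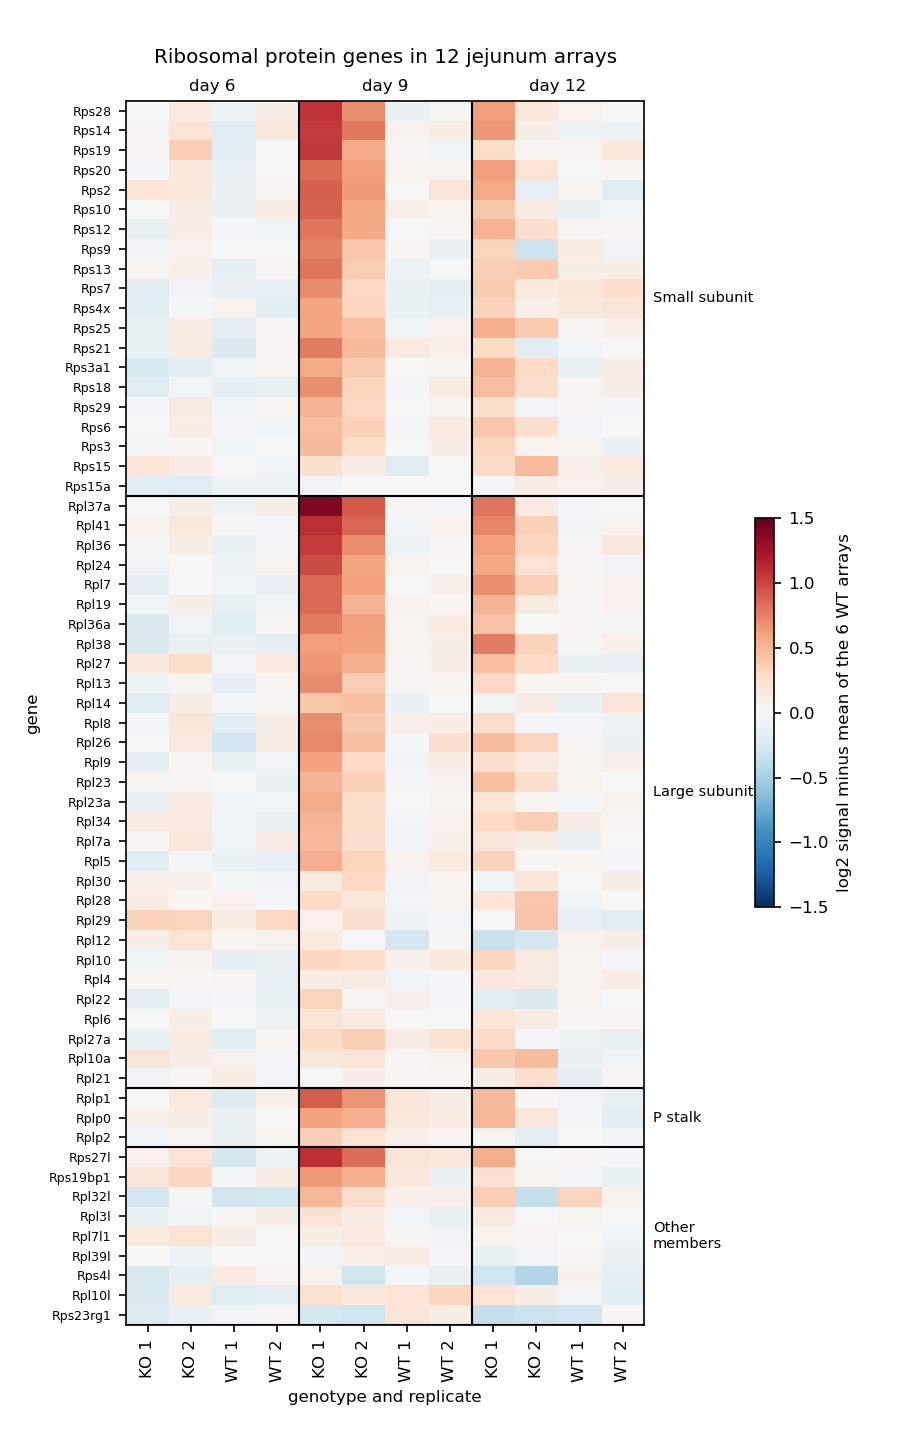
Log2 signal of each of the 62 genes in each of the 12 arrays, minus that gene's mean over the 6 WT arrays, on a colour scale between -1.5 and 1.5. Rows are genes grouped as small subunit, large subunit, P stalk and other members and ordered within a group by the day 9 difference; columns are arrays ordered by day, with KO left of WT. The 2 KO arrays of day 9 are the reddest columns, with a mean over the genes of 0.55 in replicate 1 and 0.37 in replicate 2.

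Averaged over the 62 genes and set against the WT mean, the KO arrays stood at -0.03 and 0.08 at day 6, at 0.55 and 0.37 at day 9 and at 0.31 and 0.11 at day 12. The 6 WT arrays lay between -0.07 and 0.05. All 4 KO arrays of days 9 and 12 thus lay above every WT array. Gene by gene, both KO mice of day 9 were above both WT mice of day 9 in 54 of the 62 (34.6% of all genes) and below both in 2 (31.1%). They were above all 6 WT arrays in 51 (24.0% of all genes) and below all 6 in 0 (21.7%). The 2 KO mice of day 9 differed between themselves: replicate 1 was above replicate 2 in 52 of the 62 genes, by a median log2 difference of 0.21, where the median over all genes was -0.01. At day 12, KO replicate 1 was above KO replicate 2 in 49 genes, by a median of 0.20. At day 6 the order was the other way, with KO replicate 2 above KO replicate 1 in 54 genes and a median of replicate 1 minus replicate 2 of -0.12. The count of genes called higher at day 9 was 18 without KO replicate 1 of day 9, all of them among the 39, and 23 without WT replicate 1 of day 9.

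The gene with the largest difference at day 9 was Rpl37a, a zinc-binding protein of the large subunit. Rpl37a had log2 signals of 11.25 and 10.77 in KO at day 9, against 9.88 and 9.82 in WT at day 9. Both KO arrays were above all 6 WT arrays, and the log2 difference was 1.17 (SE 0.20, limma adjusted p = 0.000948), or 2.24-fold. At day 6 Rpl37a had 9.85 and 9.95 in KO, against 9.78 and 9.95 in WT. At day 12 the KO mice had 10.65 and 9.98, against 9.83 and 9.85 in WT (log2 difference 0.47, adjusted p = 0.102). The KO mice of day 12 were spread over a wider range than any WT pair, and the genotypes did not overlap.

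Rpl41 encodes one of the smallest proteins of the ribosome, a short basic peptide of the large subunit. Its log2 signals at day 9 were 12.25 and 12.02 in KO, against 11.09 and 11.21 in WT, a log2 difference of 0.99 (SE 0.13, limma adjusted p = 0.00017), or 1.98-fold. At day 12 they were 11.88 and 11.50 in KO, against 11.10 and 11.20 in WT (0.54, SE 0.13, adjusted p = 0.0081). At day 6 the KO mice had 11.21 and 11.30, against 11.16 and 11.11 in WT (0.12, adjusted p = 0.834). Both KO mice were above both WT mice on all 3 days, and the average over days gave the smallest p that the 216 arrangements of the exact two-sided permutation within days can give, 0.00926, unadjusted.

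Rps28, a small-subunit protein near the exit of the mRNA channel, had log2 signals of 10.59 and 10.20 in KO at day 9, against 9.41 and 9.52 in WT (log2 difference 0.93, SE 0.16, limma adjusted p = 0.0011). Rpl36 of the large subunit had 10.10 and 9.75 in KO, against 8.97 and 9.06 in WT (0.91, SE 0.13, adjusted p = 0.00034). Rps14, a small-subunit protein whose human counterpart is lost in a form of myelodysplastic syndrome, had 10.90 and 10.64 in KO, against 9.91 and 9.96 in WT (0.83, SE 0.18, adjusted p = 0.00402). In all 3 genes both KO arrays of day 9 lay above all 6 WT arrays. The day 9 calls of Rpl37a, Rpl41, Rps28, Rpl36 and Rps14 held when any 1 of the 12 arrays was left out.

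**Figure D2:**
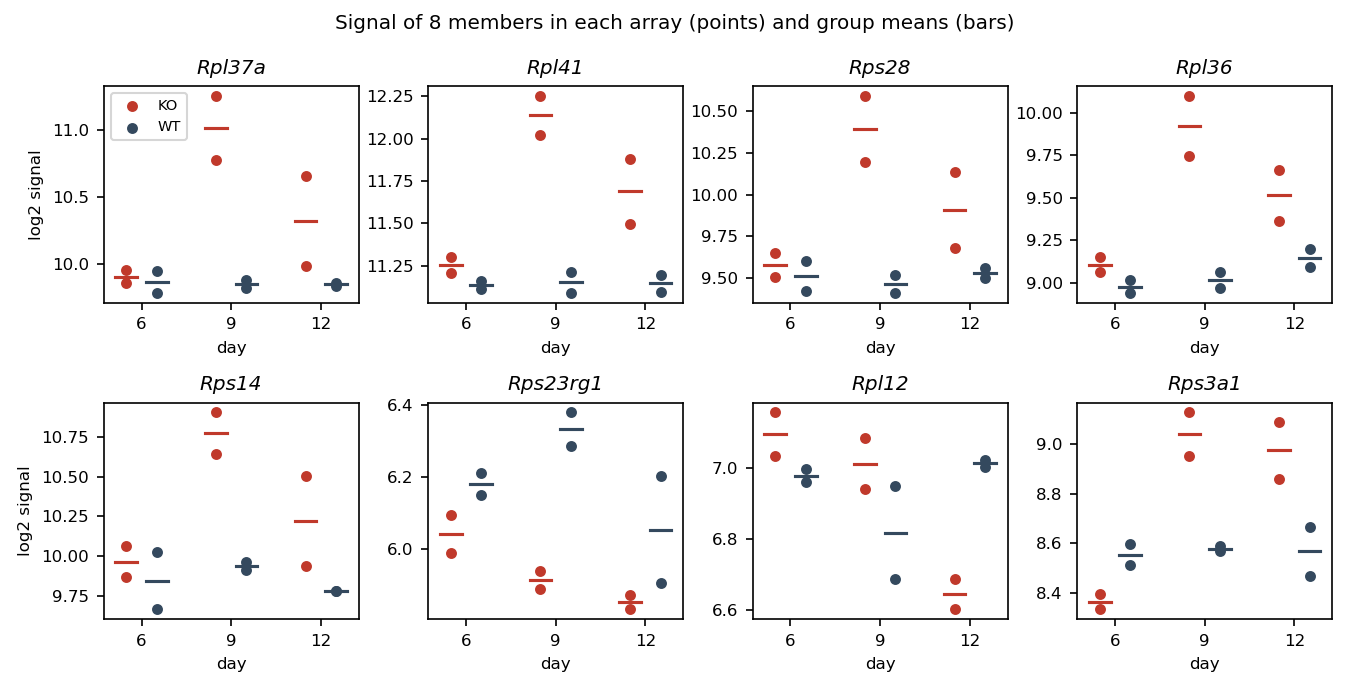
Log2 signal of 8 genes in each array, with KO (red) left of WT (blue) at days 6, 9 and 12; each panel has its own vertical scale, points are mice and bars are means of 2 mice. Rpl37a, Rpl41, Rps28, Rpl36 and Rps14 show KO points at day 9 above every WT point, Rps23rg1 lies below WT on each day, Rpl12 is lower in KO at day 12 only, and Rps3a1 is below WT at day 6 and above it at days 9 and 12.

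The sequences around the annotated starts of the genes with the largest called changes at day 9 are given because ribosomal protein mRNAs are known for a start at a C within a pyrimidine tract, the feature through which their translation is controlled together. They are RefSeq sequences on build GRCm38.p6, each with 40 bases before and 20 bases from the start, written 5′ to 3′ on the gene's strand, with the first 5 bases of the transcript in capitals. Rpl37a and Rpl41 had the largest rises, Rps23rg1 was the gene called lower, and Rpl22, whose protein is not essential to the ribosome and which has a pair of annotated starts, was not called. Rps10, Rpl38 and Rps15a, chosen after their values were seen, show starts at a C within such a tract. The annotated start of Rps23rg1 is a T within a pyrimidine tract, just after a C.
Rpl37a (chr1:72711220-72711279, plus strand): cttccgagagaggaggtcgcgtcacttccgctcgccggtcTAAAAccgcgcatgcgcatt
Rpl41 (chr10:128549149-128549208, minus strand): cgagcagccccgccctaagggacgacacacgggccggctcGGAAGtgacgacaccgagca
Rps23rg1 (chr8:3567958-3568017, plus strand): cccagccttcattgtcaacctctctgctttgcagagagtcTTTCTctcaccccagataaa
Rpl22, first start (chr4:152324396-152324455, plus strand): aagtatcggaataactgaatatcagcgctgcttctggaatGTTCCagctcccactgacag
Rpl22, downstream start (chr4:152325686-152325745, plus strand): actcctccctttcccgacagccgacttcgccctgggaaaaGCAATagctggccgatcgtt
Rps10 (chr17:27635225-27635284, minus strand): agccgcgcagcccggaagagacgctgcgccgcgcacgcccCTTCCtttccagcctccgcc
Rpl38 (chr11:114668540-114668599, plus strand): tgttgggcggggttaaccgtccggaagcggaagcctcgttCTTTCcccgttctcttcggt
Rps15a (chr7:118116128-118116187, minus strand): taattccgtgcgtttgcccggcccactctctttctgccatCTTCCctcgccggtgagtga

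A promoter was found in the RefSeq table for 50 of the 62 genes. A C at the annotated start followed by 4 bases that are each C or T stood in 10 of the 50 (20%), where 3.01% of the 27025 genes in the table have it. The median day 9 log2 difference was 0.41 in the 10 genes with this start and 0.45 in the 40 without it, and the called genes numbered 6 of 10 and 25 of 40. Annotated starts can lie some bases from the start that a tissue uses. A C followed by 7 bases that are each C or T within 30 bases of the start stood in 24 of the 50, against 20.6% of all genes, with medians of 0.37 with and 0.46 without. The letters CCGGAAG, searched on both strands of the 250 bases before and 50 after the start, stood in 18 of the 50 (36%), against 9.93% of all genes, with medians of 0.49 with and 0.39 without. AAGATGGC, searched the same way, stood in 3 of the 50, against 3.19% of all genes, with medians of 0.15 with and 0.46 without and 0 of 3 and 31 of 47 genes called higher. Genes called higher at day 9 numbered 14 of 24 with the run of 7 and 17 of 26 without it. For CCGGAAG they numbered 14 of 18 with and 17 of 32 without. These matches describe letters in the window.

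Of the genes printed, Rps10, Rpl38 and Rps15a share the start motif, and Rps10 and Rps15a had unlike differences. Rpl38 differed by 0.54 at day 9 (SE 0.12, limma adjusted p = 0.00559). Rps10 had log2 signals of 10.81 and 10.50 in KO at day 9, against 9.995 and 9.976 in WT (log2 difference 0.67, SE 0.13, limma adjusted p = 0.002). Rps15a had 7.48 and 7.53 in KO, against 7.53 and 7.54 in WT, and the log2 difference was -0.03 (adjusted p = 0.808). Rpl22 had 7.18 and 6.90 in KO, against 6.93 and 6.83 in WT (0.16, adjusted p = 0.295). Rps15a and Rpl22 each had 1 row, with WT means of 7.54 and 6.85.

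By part of the ribosome, the small subunit had a median day 9 log2 difference of 0.60 with 17 of 20 genes called higher, and the large subunit a median of 0.40 with 18 of 30 called higher. None of these 50 genes was called lower at day 9, where 12.6% of all genes were called higher and 17.1% lower. Whether the subunits differ was not tested. Among genes known for roles outside the ribosome or in disease, Rps19, which is mutated in human Diamond-Blackfan anaemia, had log2 signals of 9.08 and 8.59 in KO at day 9, against 8.05 and 7.95 in WT (0.83, SE 0.16, limma adjusted p = 0.00275). At day 12 the Rps19 signals overlapped, at 8.29 and 8.04 in KO, against 8.05 and 8.18 in WT (0.05, adjusted p = 0.878), and the sign turned without KO replicate 1 of day 12. Rps6, the protein phosphorylated by the S6 kinases downstream of mTOR, had 12.43 and 12.31 in KO at day 9, against 11.95 and 12.08 in WT (0.35, SE 0.10, adjusted p = 0.0172). Rps6 was called again at day 12, with 12.37 and 12.20 in KO, against 11.91 and 11.96 in WT (0.35, adjusted p = 0.0189).

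Some well-known genes missed the threshold at day 9 although both KO mice were above both WT mice. Rps3, a protein of the mRNA entry channel, had log2 signals of 11.02 and 10.81 in KO, against 10.53 and 10.63 in WT (0.33, limma adjusted p = 0.0503). Rpl5, which binds the p53 regulator Mdm2 when it is outside the ribosome, had 11.99 and 11.78 in KO, against 11.52 and 11.59 in WT (0.33, adjusted p = 0.0553). The 3 genes with the highest WT signal had small differences at day 9, with log2 differences of 0.02 in Rpl21, 0.16 in Rpl4 and 0.22 in Rpl28, and none of these was called. Of the 7 genes with a WT mean of 12 or more on the log2 scale, 1 was called higher at day 9, Rps7; of the 42 with a mean from 8 to under 12, 35 were, and of the 13 below 8, 3 were. Whether bright rows were close to saturation was not tested.

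In the P stalk, Rplp0 anchors the stalk and Rplp1 and Rplp2 bind to it as dimers. Rplp0 had log2 signals of 12.60 and 12.54 in KO at day 9, against 12.17 and 12.12 in WT (0.43, SE 0.11, limma adjusted p = 0.0147). Rplp1 had 12.55 and 12.32 in KO, against 11.82 and 11.74 in WT (0.65, SE 0.15, adjusted p = 0.00725). Rplp2, on 1 row with a WT mean of 7.09, had 7.46 and 7.30 in KO, against 7.17 and 7.13 in WT (0.23, adjusted p = 0.109). The KO and WT mice did not overlap in any of the 3. At day 12 Rplp0 was called again, with 12.50 and 12.16 in KO, against 11.97 and 11.82 in WT (0.43, adjusted p = 0.0142), while Rplp1 had 12.13 and 11.66 in KO, against 11.59 and 11.53 in WT (0.33, adjusted p = 0.137). The day 9 calls of Rplp0, Rplp1, Rps6 and Rps4x were lost without KO replicate 1 of day 9, with adjusted p between 0.0570 and 0.111. The call of Rplp0 was also lost without WT replicate 1 (adjusted p = 0.0539) or 2 (0.0898) of day 9, that of Rplp1 without WT replicate 2 (0.0530) and that of Rps6 without WT replicate 1 (0.132).

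**Figure D3:**
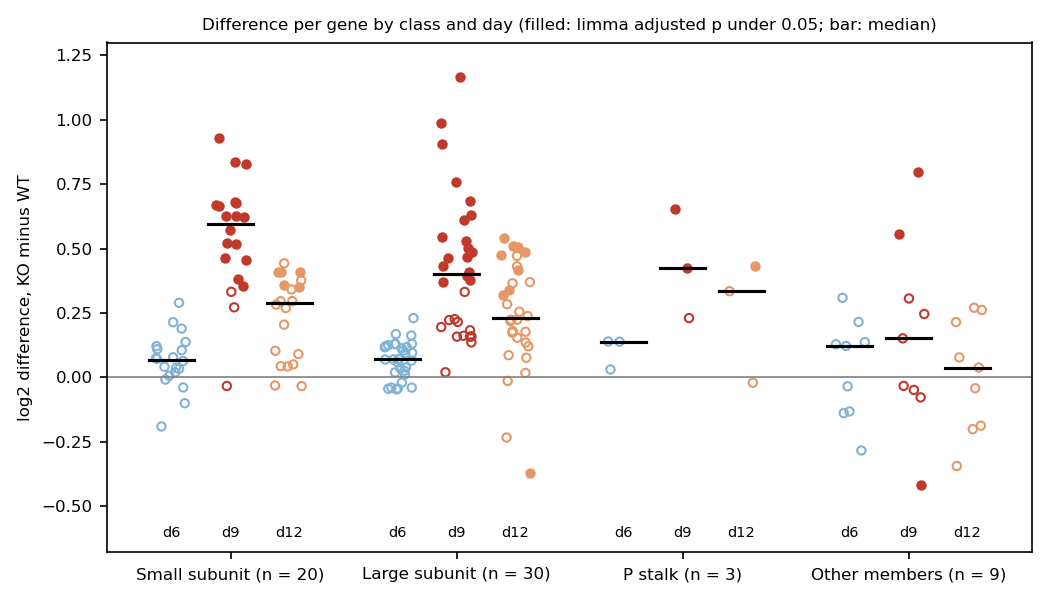
Log2 difference of each gene, KO minus WT, at days 6, 9 and 12 for the small subunit (n = 20), the large subunit (n = 30), the P stalk (n = 3) and the other members (n = 9); filled points had a limma adjusted p under 0.05 and black bars are medians. The small and large subunits have day 9 medians of 0.60 and 0.40, while no point is filled at day 6.

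The 9 paralogues and like-named genes had a median day 9 log2 difference of 0.15, with 2 called higher and 1 called lower. Of all genes, 12.6% were called higher and 17.1% lower at day 9. Rps27l, a paralogue of Rps27 that p53 is known to induce, had log2 signals of 10.02 and 9.75 in KO at day 9, against 9.10 and 9.07 in WT (0.80, SE 0.16, limma adjusted p = 0.00307). At day 6 Rps27l had 8.98 and 9.12 in KO, against 8.64 and 8.84 in WT (0.31, adjusted p = 0.507), and at day 12 it had 9.46 and 8.90 in KO, against 8.93 and 8.89 in WT (0.27, adjusted p = 0.266). Rps19bp1, whose protein binds Rps19 and is not a part of the ribosome, had 8.38 and 8.28 in KO at day 9, against 7.90 and 7.64 in WT (0.56, SE 0.11, adjusted p = 0.00321). Its KO mice were above its WT mice on all 3 days.

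Rps23rg1, a retrotransposed copy of Rps23, was the gene called lower. It had log2 signals of 5.94 and 5.89 in KO at day 9, against 6.38 and 6.29 in WT (log2 difference -0.42, SE 0.11, limma adjusted p = 0.0111), and without WT replicate 1 of day 9 the adjusted p was 0.0806. At day 6 it had 5.99 and 6.09 in KO, against 6.15 and 6.21 in WT, and at day 12 it had 5.83 and 5.87 in KO, against 5.90 and 6.20 in WT. Both KO mice were below both WT mice on each day, which held for no other of the 62 genes and for 6.86% of all genes. Averaged over days the log2 difference was -0.25 (SE 0.06, adjusted p = 0.00721), and the exact permutation gave 0.00926, unadjusted, the smallest possible. Rps23rg1 had 1 row, with a WT mean of 6.19, where the array medians lay between 5.95 and 6.02.

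Rps4l was set beside its parent gene. Rps4x, the X-linked small-subunit protein, had log2 signals of 11.83 and 11.56 in KO at day 9, against 11.13 and 11.11 in WT (0.57, SE 0.13, limma adjusted p = 0.00535). Rps4l had 8.47 and 8.13 in KO, against 8.40 and 8.30 in WT (-0.05, adjusted p = 0.812). Averaged over days, Rps4l was called lower, with a log2 difference of -0.23 (SE 0.07, adjusted p = 0.0311), but its other array row differed by 0.34 at day 9 and the call was lost when its rows were averaged (adjusted p = 0.156) or under quantile normalisation (adjusted p = 0.0726). It was also lost without replicate 1 of KO day 6, WT day 6, WT day 9 or WT day 12, and without replicate 2 of KO day 9 or KO day 12, with adjusted p between 0.0633 and 0.0919. Whether the difference between parent and paralogue passes a test was not tested.

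The remaining paralogues with known parents were not called on any day. Rpl7l1, a relative of Rpl7 that acts in the assembly of pre-ribosomes, had log2 differences of 0.14, 0.15 and 0.08 at days 6, 9 and 12. Rpl3l, the paralogue of Rpl3 found in striated muscle, had 5.01 and 4.90 in KO at day 9, against 4.75 and 4.67 in WT (0.25, limma adjusted p = 0.063). Rpl10l and Rpl39l, paralogues known from the testis, had day 9 differences of -0.08 and -0.03. Rpl39l, Rpl10l and Rpl3l had the lowest WT signals of the 62 genes, with means of 3.97, 4.67 and 4.79. Rpl10, the parent of Rpl10l, had 12.51 and 12.47 in KO at day 9, against 12.26 and 12.35 in WT (0.18, adjusted p = 0.184).

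At day 6, when limma called none of the 62, the 1 gene higher and 1 gene lower at an unadjusted p under 0.05 stood against shares of all genes of 6.58% and 5.25%. The median log2 difference was 0.07, against 0.00 over all genes, and 48 of the 62 lay above 0 (50.9% of all genes did). That count varied with scaling. After quantile normalisation the median was 0.01 and 33 lay above 0, and after median centring the median was 0.10 and 50 lay above 0. Without KO replicate 2 of day 6 the median was -0.00054, and without KO replicate 1 of day 6 it was 0.13. Both KO mice were above both WT mice in 20 genes (23.7% of all genes) and below both in 5 (20.9%), and they were above all 6 WT arrays in 7 (11.0%) and below all 6 in 3 (9.80%). The genes with the smallest p were Rpl34, with 9.43 and 9.44 in KO, against 9.23 and 9.18 in WT (0.23, adjusted p = 0.374), and Rps4l, with 8.16 and 8.26 in KO, against 8.54 and 8.45 in WT (-0.28, adjusted p = 0.394). Rps27l, Rps19bp1 and Rps15 followed, with log2 differences of 0.31, 0.21 and 0.19.

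All 15 genes called at day 12 were proteins of the mature ribosome. The median log2 difference was 0.23, against 0.02 over all genes, and 52 of the 62 lay above 0 (54.7% of all genes did). Both KO mice were above both WT mice in 38 genes (31.6% of all genes) and below both in 4 (26.6%), and they were above all 6 WT arrays in 26 (19.3%) and below all 6 in 4 (17.9%). By part, 5 of 20 small-subunit, 8 of 30 large-subunit and 1 of 3 stalk genes were called higher (13.7% of all genes were). None of the 14 reached 1.5-fold. The count was 3 without WT replicate 1 of day 12, 5 without WT replicate 2 or without KO replicate 1 of day 12, 23 without KO replicate 2 of day 12, and 5 when the 4 arrays of day 12 were fitted alone.

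The largest rise at day 12 was that of Rpl41, given above. Rpl10a, a large-subunit protein of the stalk on the side where transfer RNA leaves, had log2 signals of 12.52 and 12.59 in KO at day 12, against 12.03 and 12.06 in WT (log2 difference 0.51, SE 0.08, limma adjusted p = 0.000751). At day 9 it had 12.28 and 12.32 in KO, against 12.14 and 12.19 in WT (0.14, adjusted p = 0.257), so Rpl10a was among the genes whose day 12 difference was the larger. Rpl38, needed in mice for the translation of some Hox mRNAs, had 11.46 and 11.04 in KO at day 12, against 10.72 and 10.77 in WT (0.51, SE 0.12, adjusted p = 0.00819). Its day 9 signals were 11.32 and 11.29 in KO, against 10.75 and 10.78 in WT (0.54, SE 0.12, adjusted p = 0.00559).

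Rpl27 and Rpl7 of the large subunit were also called on both days. Rpl27 had log2 signals of 10.02 and 9.85 in KO at day 12, against 9.45 and 9.45 in WT (0.49, SE 0.10, limma adjusted p = 0.00351), and at day 9 it had 10.21 and 10.11 in KO, against 9.59 and 9.67 in WT (0.53, adjusted p = 0.00209). Rpl7 had 11.81 and 11.47 in KO at day 12, against 11.15 and 11.18 in WT (0.48, adjusted p = 0.0137), and at day 9 it had 11.96 and 11.71 in KO, against 11.12 and 11.19 in WT (0.68, SE 0.12, adjusted p = 0.0016). In all, 12 of the 62 were called higher on both days (6.38% of all genes were). The day 12 calls of Rpl41, Rpl38 and Rpl7 were each lost without KO replicate 1 or without WT replicate 1 of day 12, with adjusted p between 0.0542 and 0.109.

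Rpl12, which with Rplp0 forms the base of the stalk, was the gene called lower at day 12. It had log2 signals of 6.60 and 6.69 in KO, against 7.004 and 7.024 in WT (log2 difference -0.37, SE 0.11, limma adjusted p = 0.0219). At day 9 it had 7.08 and 6.94 in KO, against 6.69 and 6.95 in WT (0.19, adjusted p = 0.198), and at day 6 it had 7.03 and 7.16 in KO, against 6.962 and 6.996 in WT (0.12, adjusted p = 0.783). The genotypes did not overlap at day 12, but WT replicate 1 of day 9 was as low as KO replicate 2 of day 12. The day 12 call of Rpl12 was lost without KO replicate 1, WT replicate 1 or WT replicate 2 of day 12, with adjusted p between 0.0808 and 0.1.

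The median SE of a difference at 1 day was 0.12 over the 62 genes on the log2 scale. Averaged over the 3 days, 39 of the 62 were called higher and 2 lower, where the shares of all genes were 15.7% and 16.9%. The median average difference was 0.24, against 0.02 over all genes. The exact permutation within days gave an unadjusted p under 0.05 for 40 of the 62, where it did so for 30.1% of all genes; with 2 against 2 mice, a single day cannot give a p below 0.333. Both KO mice were above both WT mice on all 3 days in 15 genes (7.68% of all genes), among them Rpl41, Rpl27, Rplp0, Rps6 and Rpl10a. The average lay above 0 in 56 of the 62 (55.0% of all genes).

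Across days within KO, 41 of the 62 genes changed over days 6, 9 and 12 by the moderated F test of limma (37.6% of all genes did). That count was 18 without KO replicate 1 of day 6 and 19 without KO replicate 1 of day 9. In KO, 40 genes were called higher at day 9 than at day 6 and none was called lower (10.0% and 14.5% of all genes were). The median log2 difference of the 62 was 0.48. Rpl37a differed by 1.11 (SE 0.20, adjusted p = 0.00222) and Rpl41 by 0.88 (SE 0.13, adjusted p = 0.000748). The comparison shares its KO arrays of day 9 with the comparison of KO and WT.

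Between days 9 and 12 in KO, 18 genes were called lower at day 12 and 1 was called higher. Of all genes, 8.81% were called lower and 14.1% higher. The median log2 difference was -0.25. Rps27l fell by 0.70 (SE 0.16, limma adjusted p = 0.0107), Rpl37a fell by 0.70 (SE 0.20, adjusted p = 0.0257) and Rps19 fell by 0.67 (SE 0.16, adjusted p = 0.015). Rpl10a was the gene called higher, by 0.25 (SE 0.08, adjusted p = 0.0483). Against day 6 in KO, 11 genes were called higher at day 12, led by Rpl38 at 0.72 (SE 0.12, adjusted p = 0.00109). Rpl12 was called lower, at -0.45 (SE 0.11, adjusted p = 0.00862). Of all genes, 12.3% were called higher and 11.0% lower.

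In WT no gene of the 62 passed the F test over days, and 0.0201% of all genes did. At an unadjusted p under 0.05 it gave 2 of the 62, Rpl10l and Rps7, where 10.0% of all genes passed. The pairwise comparisons of WT days by limma called none of the 62 either, where the shares of all genes called were 0.0401% higher and 0.0201% lower at day 9 over 6, 0% at day 12 over 9, and 0% higher and 0.00502% lower at day 12 over 6. They gave 2, 5 and 3 genes at an unadjusted p under 0.05 for day 9 over 6, day 12 over 9 and day 12 over 6. The corresponding shares of all genes were 9.48%, 8.94% and 8.18%.

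The difference between KO and WT itself differed between days in 9 of the 62 genes by the moderated F test of the interaction, against 18.5% of all genes. These were Rpl41, Rps3a1, Rpl36, Rpl37a, Rpl12, Rpl24, Rps28, Rpl38 and Rpl7. The count moved between 0 and 19 when single arrays were left out and by over 1.5 times for each of the 12. In 3 of the 62 genes, Rps3a1, Rpl12 and Rpl3l, both KO mice were above both WT mice on 1 day and below both on another (19.2% of all genes). Rps3a1, a small-subunit protein, had log2 signals of 8.33 and 8.39 in KO at day 6, against 8.51 and 8.60 in WT (-0.19, limma adjusted p = 0.57). At day 9 it had 9.13 and 8.95 in KO, against 8.57 and 8.59 in WT (0.46, SE 0.11, adjusted p = 0.00804), and at day 12 it had 9.09 and 8.86 in KO, against 8.47 and 8.67 in WT (0.41, adjusted p = 0.0161). The KO mice were below WT at day 6 and above WT on the later days, with no overlap on any day (interaction adjusted p = 0.0200).

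The signed log2 difference, KO minus WT, was larger at day 9 than at day 12 in 53 of the 62 genes. Day 9 and day 12 differences correlated across the 62 genes at Pearson's r = 0.54 and Spearman's rho = 0.51, and across all 19938 genes at 0.75 and 0.55. The points are genes measured on the same 8 arrays and are not independent replicates. Day 9 differences and WT signal correlated at r = 0.27 and rho = 0.07 over the 62 genes, and at r = -0.06 and rho = -0.21 over the 53 proteins of the mature ribosome.

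Ribosomal protein genes have many processed copies in the mouse genome, and probes for a gene can also bind RNA of its copies, so values of single genes carry that uncertainty. The 62 genes had 214 single-symbol rows, with 24 genes on 1 row and 38 on several, and 12 of the rows repeated the values of another row. At day 9, 209 of the 214 rows had a log2 difference above 0, with a median of 0.47, against 0.03 over all 35556 rows. In 37 of the 38 genes with several rows all rows had the same sign, and Rps4l was the exception. The 239 rows with several symbols, at least 1 of them of this kind, had a median of 0.27 at day 9, with 199 above 0. Probe sets were not separated here into those that bind the gene and those that bind copies.

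**Figure D4:**
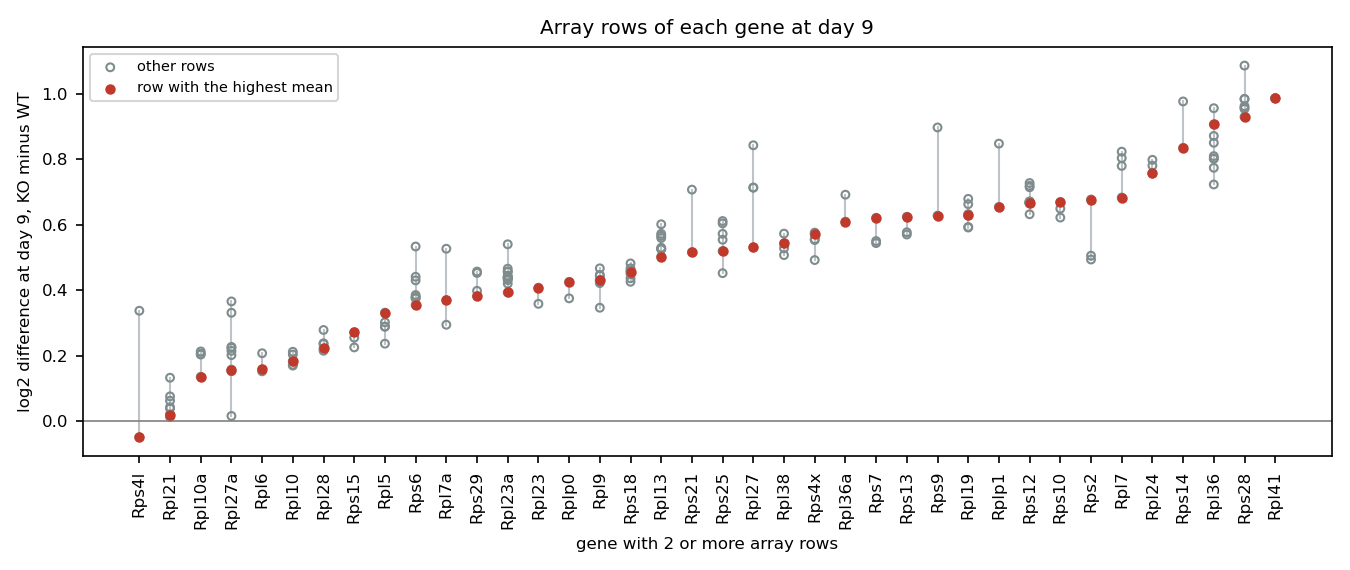
Day 9 log2 difference, KO minus WT, of every array row of the 38 genes with 2 or more rows, ordered by the row used; red points are the rows with the highest mean signal, which were used, grey circles are the other rows. Only Rps4l has rows on both sides of 0.

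Genes of related functions were counted from lists of the translation machinery. Rpsa and Fau, which encode small-subunit proteins whose symbols the rule does not take, were called higher at day 9, with log2 differences of 0.40 (SE 0.11, limma adjusted p = 0.0144) and 0.43 (SE 0.11, adjusted p = 0.0127). Of 47 measured ribosome biogenesis genes, 28 were called higher and 1 lower at day 9 and 19 higher and 1 lower at day 12, with median differences of 0.36 and 0.20. At day 6, 1 was called, Ddx21, a nucleolar helicase, at 0.43 (adjusted p = 0.0469), and the median was 0.30. The largest rises at day 9 were Nhp2, a protein of the particles that modify ribosomal RNA, at 1.17 (SE 0.12), Nop16 at 1.00 (SE 0.10) and Mrto4, a large-subunit assembly factor related to Rplp0, at 1.00 (SE 0.14), while Gnl3l fell by 0.47 (SE 0.14). At day 12 they were Ddx10, Ltv1 and Utp4, at 0.98, 0.86 and 0.83, while Polr1b, a subunit of RNA polymerase I, fell by 0.51 (SE 0.10).

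Of 30 measured translation factors and associated proteins, 17 were called higher and 3 lower at day 9, with a median of 0.32, and 16 were called higher and 2 lower at day 12, with a median of 0.31. At day 6, 1 was called. This was Eif6, which keeps the subunits apart and acts in large-subunit maturation and was called higher on each day, at 0.58 at day 6 (limma adjusted p = 0.0191), 0.94 at day 9 and 0.89 at day 12. Eif2s2, a subunit of initiation factor eIF2, differed by 0.93 (SE 0.11) at day 9 and 1.34 at day 12. The helicase gene Eif4a2 fell by 0.69 (SE 0.09) at day 9 and by 0.65 at day 12, and Eif4b fell by 0.29 and 0.30.

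Of 24 measured genes that control translation, 5 were called higher and 9 lower at day 9, with a median difference of -0.10. At day 12, 7 were called higher and 3 lower, with a median of 0.04. At day 6, Eif2ak3, a kinase of eIF2, and Sesn2 were called higher, at 0.66 and 0.70. Among those higher were Eif4ebp1, whose product binds the cap-binding factor and blocks initiation, at 1.62 (SE 0.14) at day 9 and 1.46 at day 12, and the mTOR inhibitors Ddit4, at 1.61 (SE 0.21) and 1.5, and Sesn2, at 0.90 and 1.42. Among the 9 called lower at day 9 was Pdcd4, an inhibitor of the initiation helicase, which fell by 2.06 (SE 0.14). At day 12 Pdcd4 fell by 0.66. Of 77 mitochondrial ribosomal protein genes, 21 were called higher and 10 lower at day 9, with a median of 0.16, and 7 higher and 12 lower at day 12, with a median of -0.05. Over all genes, 12.6% were called higher and 17.1% lower at day 9, and 13.7% in each direction at day 12. At day 6 the shares of all genes were 0.597% higher and 0.431% lower. Whether these lists differ from the cytosolic ribosomal protein genes was not tested.

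**Figure D5:**
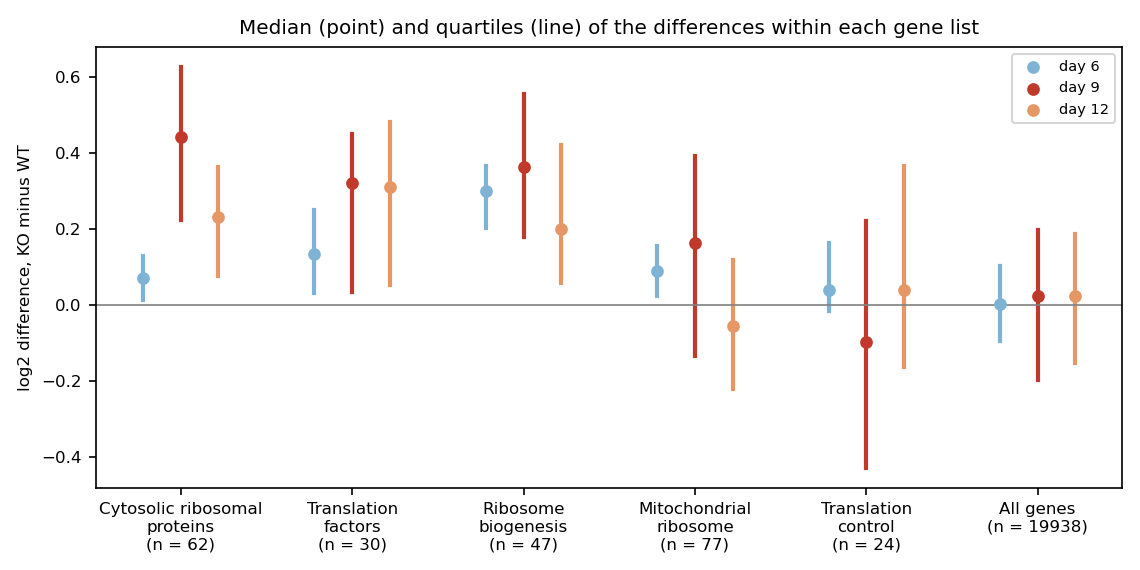
Median (points) and middle 50% (bars) of the log2 difference, KO minus WT, of cytosolic ribosomal protein genes and related lists at days 6, 9 and 12. The cytosolic ribosomal protein genes stand at 0.07, 0.44 and 0.23, and the ribosome biogenesis genes at 0.30, 0.36 and 0.20.

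Markers of cell types moved in the same KO arrays, and their part in the results above was not tested. Relative to the WT mean, the mean of 17 enterocyte markers stood at -1.34 and -1.18 in KO at day 9 and at -1.69 and -1.20 in KO at day 12, while the WT arrays lay between -0.14 and 0.10; 11 of 17 were called lower at day 9 and 12 at day 12, and the median differences were -0.75 and -1.37. The mean of 16 crypt markers, of the cell cycle and of stem cells, stood at -0.60 and -0.62 in KO at day 9. At day 12 it stood at -1.52 and -1.25, while WT lay between -0.06 and 0.03. Of these markers, 6 and 15 were called lower at days 9 and 12. The shares of all genes called lower were 17.1% at day 9 and 13.7% at day 12. The median differences of the crypt list were -0.22 at day 9 and -1.05 at day 12, and the lowest single differences were -4.80 and -6.61. T cell markers stood at -0.68 and -0.53 at day 9 and at -1.09 and -1.48 at day 12, with WT between -0.43 and 0.32. Fibroblast markers stood at 0.60 and 0.41 at day 9 and at 0.82 and 0.56 at day 12, with WT between -0.36 and 0.20. In KO at days 9 and 12, replicate 1 was the higher array for the fibroblast, smooth muscle, and B and plasma cell lists, as for the ribosomal protein genes. It was the lower one for the enterocyte and myeloid lists. For the T cell, crypt and pancreas lists the order changed between these days.

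Myeloid markers stood between 0.24 and 0.30 in KO at day 9, with 3 of 11 called higher and WT between -0.07 and 0.08. At day 12, 2 myeloid markers were called higher and 2 lower. The shares of all genes called higher were 12.6% at day 9 and 13.7% at day 12, and 13.7% were called lower at day 12. Smooth muscle markers differed between mice of a group, at 0.22 in replicate 1 and -0.77 in replicate 2 of KO at day 9. WT lay between -0.69 and 0.59. Both KO mice of day 6 were low, at -0.98 and -1.13, and those of day 12 stood at 0.83 and 0.27, with 1 of 15 called higher. B and plasma cell markers stood between -0.37 and 0.35 in KO at day 9, with WT between -0.44 and 0.71. At day 12 both KO mice were below all 6 WT arrays, at -0.63 and -0.71, with 4 of 10 called lower and 1 higher. Enterocyte markers, which mark the labelled tissue, had mean log2 signals between 12.34 and 12.59 in WT arrays, and markers of the neighbouring pancreas were at 5.69 to 5.87.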

How the data were processed

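Jejunum RNA of 12 mice was hybridised to Affymetrix Mouse Gene 1.0 ST arrays, per the labels. The deposited values, 1 column per array, are log2 signals made by the authors; limma and R 3.5 are named in the submitters' processing notes, and background correction, normalisation and summary method were not given in the sources used here. The deposited log2 values were used with no further scaling.

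Of 35556 rows, 21789 carried 1 symbol in the platform annotation, 1621 several and 12146 none. The single-symbol row with the highest mean stood for each of 19938 genes. Groups were taken from the sample titles. A model with 1 mean per genotype and day was fitted over all 12 arrays with limma 3.58.1 in R 4.3.3 (lmFit, eBayes, 6 residual and 5.23 prior degrees of freedom), with Benjamini-Hochberg adjustment over all genes. Array precision is limited by 2 mice per group. The fit was tested on simulated data. Figures were drawn with matplotlib 3.10.9.

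The members, the lists and the tests were chosen with earlier results of these data known. Genes named, most with the value of every array of a day, were the 5 largest called rises and falls per comparison (or the 5 smallest p), the 5 smallest interaction p, the stalk genes, paralogues with their parents, a few well-known members, and the 3 highest and 3 lowest WT signals. Promoters were named by the largest day 9 changes in each direction, with Rpl22; further genes named outside these rules were chosen after their values were seen. The promoter of Rpl22l1, which had no row of its own, is not shown. Alternatives were quantile normalisation, median centring, a filter on dim genes, the mean of all rows per gene, an intensity trend, a replicate block within days, fits of 1 day alone, core members only, and leaving out each array.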

Additional observations from a re-analysis of the deposited data

Results flagged for a closer look

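The log2 difference between KO and WT differed between days by the limma F test of the interaction in 9 of the 62 genes, or 14.5%, against 18.5% of all genes. The count ran from 0 to 19 with single arrays left out. The adjusted p was 0.0179 for Rpl41, 0.0200 for Rps3a1, 0.0294 for Rpl36, 0.0359 for Rpl37a, 0.0369 for Rpl12, 0.0444 for Rpl24, 0.0459 for Rps28, 0.0481 for Rpl38 and 0.0493 for Rpl7. Rpl24, a protein of a bridge between the subunits, had day 9 and day 12 differences of 0.76 and 0.42.

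In 3 genes both KO mice stood on one side of both WT mice on one day and on the other side on another day, which held for 19.2% of all genes. Rpl12 differed by 0.12 at day 6 and by -0.37 at day 12. Rps3a1 differed by -0.19 at day 6, by 0.46 at day 9 and by 0.41 at day 12. Rpl3l differed by -0.13 at day 6 and by 0.25 at day 9, with no call on either day and an interaction adjusted p of 0.13 by limma. The change of the KO minus WT difference between a pair of days was not tested for these 3 genes.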

How the results depend on the processing

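The 39 genes called higher at day 9 all kept the call under quantile normalisation, median centring, the filter on dim genes, the mean of all rows, the intensity trend and the replicate block, and 38 did in a fit of day 9 alone. Quantile normalisation gave 2862 higher and 3003 lower calls over all genes at day 9, median centring 2194 and 3560, and the deposited scaling 2505 and 3412. Fewer arrays gave other counts. When single arrays were left out, the genes called higher numbered 0 to 0 at day 6, 18 to 43 at day 9, 3 to 23 at day 12 and 28 to 45 over the average of days; those called lower numbered 0 to 0, 0 to 1, 0 to 2 and 1 to 2. The median difference ran from -0.00054 to 0.13 at day 6, 0.32 to 0.54 at day 9, 0.11 to 0.32 at day 12 and 0.20 to 0.27 over the average. Genes with an interaction numbered 0 to 19, genes that changed over days in KO 18 to 43 and in WT 0 to 0. A fit of day 12 alone gave 5 higher and 0 lower. Genes called lower numbered 0 at day 9 and 0 over the average among core members, and 1 over the average under quantile normalisation or the mean of rows. With 1 of the 4 arrays of a day left out, the difference turned sign in 32 genes at day 6, 3 at day 9 and 15 at day 12, none of them called. At day 9 these were Rpl39l (-0.11 to 0.045 with single arrays left out), Rps4l (0.065 with quantile normalisation, 0.14 with the mean of rows and -0.22 to 0.12 with single arrays left out) and Rpl21 (-0.005155 with median centring and -0.038 to 0.077 with single arrays left out). The 5 interaction calls tested this way were each lost without at least 1 array. Replicate numbers were not shown to pair mice: deviations of same-numbered mice correlated at 0.18, -0.09 and 0.11 on days 6, 9 and 12. With the replicate number within days as a block, 40 genes were called higher at day 9, 15 at day 12 and 39 over the average, 2 were called lower at day 12, and 8 had an interaction. The cause of these shifts was not tested.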
